A study of Mus musculus with 2 samples.

Results

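The nuclear genes for the subunits of the mitochondrial respiratory chain were compared between primary macrophages and self-renewing macrophages grown from mouse bone marrow. The genes were taken by symbol: every symbol that starts with Nduf, Uqcr, Cox4i, Cox5, Cox6, Cox7, Cox8 or Atp5, together with Sdha, Sdhb, Sdhc, Sdhd and Cycs. The mouse gene table held 116 such genes, of which 97 are protein-coding and 19 are pseudogenes. A named probe was present for 93 of them, out of 22910 named genes on the array. Of these 93, 90 gave a signal well above background on at least 1 array, out of 15516 such genes in all. The rule uses symbols and no measured value.

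The arrays came from an experiment that asked which genes, such as transcription factors, accompany the ability of macrophages to renew themselves. Total bone marrow cells of C57BL/6 mice, labelled male, were grown on non-coated dishes in RPMI medium with serum (heat-inactivated FCS). Both groups received rhM-CSF, recombinant human macrophage colony-stimulating factor, at 100 ng/ml. Primary macrophages were collected at day 5, and self-renewing macrophages after passage 4. There was 1 array of total RNA for each cell type, so no difference below has a replicate check and no p-value was computed. The age of the mice, their number and whether both cultures came from the same animals were not given in the sources used here.

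The labelled cell type was checked first. All 9 macrophage markers were well above background on both arrays, among them Adgre1 (F4/80) and Csf1r (the M-CSF receptor). In self-renewing macrophages 8 of the 9 were higher, by the most Mertk (4.68-fold). The exception was Fcgr1, which was 3.39-fold lower in self-renewing macrophages. Of 10 neutrophil markers, 8 were well above background in primary macrophages and 4 in self-renewing macrophages. Their summed intensity was 51678 against 2908. All 8 were lower in self-renewing macrophages, 7 of them at least 2-fold. Elane was only 1.39-fold lower, and made up 2671 of the 2908. In a bulk sample, fewer cells of a type and less RNA per cell cannot be told apart. The summed intensities of erythroid markers (686 against 281) and of B cell markers (835 against 128) were also lower in self-renewing macrophages. Each of these sums was led by 1 gene, Hba-a1 (491 against 154) and Cd79b (696 against 3). Klf1 (98 against 102) and Pax5 (89.8 against 90.4) were about level, and Cd79a (15.5 against 21.3) was higher. T cell markers were close (1125 against 1144). The labels and the sex-linked genes disagreed: of the 2 arrays, only that of primary macrophages detected Xist, and only that of self-renewing macrophages detected Eif2s3y, Kdm5d, Ddx3y and Uty, although both samples are labelled male. An exchange of the samples would turn the sign of every difference below, and the sex-linked genes do not bear on it, since both labels read male. The neutrophil markers were the higher in the sample labelled as the 5 day culture of total bone marrow and the lower in the one labelled as passaged, but whether the samples were exchanged was not tested. The part that the animals' sex or the other cell types had in the differences below was not tested, and with 1 array per cell type they cannot be told apart from the cell type itself.

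The respiratory chain lies in the inner mitochondrial membrane. Complex I takes electrons from NADH and complex II from succinate. Both pass them through ubiquinone to complex III, and cytochrome c carries them on to complex IV, which reduces oxygen. Complexes I, III and IV pump protons, and complex V, the ATP synthase, uses the proton gradient to make ATP. Most subunits are encoded in the nucleus, a few in mitochondrial DNA, and several complex IV subunits have isoforms restricted to muscle, lung or testis. Macrophages are known to shift between oxidative phosphorylation and glycolysis with their activation state. The mitochondrially encoded subunits were looked for by symbols that start with mt-Nd, mt-Co, mt-Cyt or mt-Atp, and the mouse gene table held none. No probe could therefore be named for them, and that side of the chain was not analysed here. Whether the array holds probes for them was not tested.

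Many promoters of respiratory genes are known for sites of nuclear respiratory factor 1 (NRF1) and of ETS family factors such as NRF2. RefSeq promoter windows of GRCm38.p6, from 250 bases before to 50 bases after the annotated start, were at hand for 79 of the genes (84 windows). The NRF1 core GCGCANGCG, read on both strands, was present in 28.6% of these windows and in 6.25% of all 32851 windows. The letters CCGGAAG of an ETS core were in 22.6% against 8.86%, the cyclic AMP response element TGACGTCA in 5.95% against 1.79%, AAGATGGCG of the YY1 site in 9.52% against 1.40%, and the muscle E-box CAGCTG in 7.14% against 16.3%. The NRF1 core can match both strands at overlapping positions. Such a match is a run of letters and not a measured binding site. No window was at hand for Cox6a2, the gene with the largest difference below, so it enters none of the promoter values.

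Windows are shown for some of the genes, picked as examples. Ndufaf4 is a complex I assembly factor that was higher in self-renewing macrophages, and Cycs is the common cytochrome c. Cox6a1 is the widely expressed isoform of a complex IV subunit. Cox7a1 is a muscle isoform of complex IV that was lower in self-renewing macrophages. In this order, the windows lie at chr4:24897833-24898132 (plus strand), chr6:50566520-50566819 (minus strand), chr5:115348909-115349208 (minus strand) and chr7:30183921-30184220 (plus strand). Each is given 5′ to 3′ on the strand of its gene, with matches to the 5 motifs in capitals.
Ndufaf4: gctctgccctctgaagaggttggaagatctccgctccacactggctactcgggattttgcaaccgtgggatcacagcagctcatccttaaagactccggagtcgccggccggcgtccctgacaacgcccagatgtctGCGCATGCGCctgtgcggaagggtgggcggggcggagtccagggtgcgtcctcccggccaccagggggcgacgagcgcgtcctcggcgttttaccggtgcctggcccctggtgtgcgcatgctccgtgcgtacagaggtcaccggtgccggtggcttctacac
Cycs: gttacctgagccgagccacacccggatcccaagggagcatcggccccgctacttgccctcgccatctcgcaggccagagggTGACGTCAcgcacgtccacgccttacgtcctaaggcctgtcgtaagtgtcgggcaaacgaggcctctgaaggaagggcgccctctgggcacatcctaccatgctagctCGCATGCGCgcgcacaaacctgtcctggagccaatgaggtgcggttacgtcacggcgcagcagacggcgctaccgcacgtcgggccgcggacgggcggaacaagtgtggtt
Cox6a1: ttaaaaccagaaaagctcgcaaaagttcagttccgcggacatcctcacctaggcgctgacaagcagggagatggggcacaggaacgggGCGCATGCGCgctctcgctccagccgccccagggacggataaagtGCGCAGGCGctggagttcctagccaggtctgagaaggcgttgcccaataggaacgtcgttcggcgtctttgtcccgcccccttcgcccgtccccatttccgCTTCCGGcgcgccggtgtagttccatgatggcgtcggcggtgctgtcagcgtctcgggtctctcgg
Cox7a1: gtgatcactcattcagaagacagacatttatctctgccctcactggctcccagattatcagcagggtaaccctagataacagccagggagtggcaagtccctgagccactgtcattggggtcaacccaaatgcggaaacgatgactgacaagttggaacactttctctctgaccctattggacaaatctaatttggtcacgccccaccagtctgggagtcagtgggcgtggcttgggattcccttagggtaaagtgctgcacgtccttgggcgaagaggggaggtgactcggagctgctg

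In the Ndufaf4 window the NRF1 core lay on both strands, 113 and 112 bases before the start. The Cycs window held it 61 bases before the start and a cyclic AMP response element 169 bases before it. The Cox6a1 window held 3 matches to the NRF1 core, the farthest 162 bases before the start, and an ETS core 16 bases before it. None of the 5 motifs was found in the Cox7a1 window, nor in that of the assembly factor Ndufaf3, which is not shown. The genes with the NRF1 core (23 with a measured difference) had a median difference of 0.05 log2 between the arrays, and those without it (52 genes) one of 0.02. For the ETS core the medians were 0.08 log2 with it (19 genes) and 0.00 log2 without it (56 genes). For the YY1 letters they were 0.16 with (8 genes) and 0.01 without (67 genes), for the cyclic AMP response element -0.07 with (5 genes) and 0.03 without (70 genes), and for the muscle E-box 0.03 both with (5 genes) and without (70 genes). These gaps are descriptions of 1 pair of arrays.

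As a whole, the respiratory chain genes differed little between the cell types. Signals are given as log2 of the processed intensity relative to the 75th percentile of the array, and each difference is self-renewing minus primary macrophages on that log2 scale. The median difference of the 90 genes was 0.05, with 53 genes higher and 37 lower in self-renewing macrophages. Of these, 60 lay within 0.2 of 0. The median of all 15516 named genes was -0.02. Of the 90 genes, 58.9% were higher, against 47.9% of all named genes. Among named genes with a mean signal at or above the 75th percentile, 53.2% were higher. The interquartile range of the respiratory chain differences was 0.27 log2, against 0.60 for all named genes, so that the respiratory genes were packed more closely around 0.

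Past a 1.5-fold difference there were 3 respiratory chain genes higher in self-renewing macrophages (Cox6a2, Ndufaf4 and Ndufaf3) and 1 lower (Cox7a1). Of all named genes, 10.9% were higher and 15.1% lower by this limit. Past 2-fold there was 1 gene higher, Cox6a2, and none lower, where the shares of all named genes were 4.76% and 8.38%. Bright genes vary less, so the same was read among the 8612 genes whose mean signal was at or above the 75th percentile. In that range, 9.72% of genes were at least 1.5-fold higher and 9.05% lower, and 3.55% and 3.8% passed 2-fold. Of the 87 respiratory chain genes in it, 2 were at least 1.5-fold higher, 1 was lower and none passed 2-fold. Their interquartile range was 0.25 log2, against 0.50 for the bright genes. This cutoff does not match the respiratory chain genes in brightness. Their median signal was 5.20 log2 above the 75th percentile in primary and 5.37 in self-renewing macrophages. The part that brightness had in the narrower spread was not tested.

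**Figure D1:**
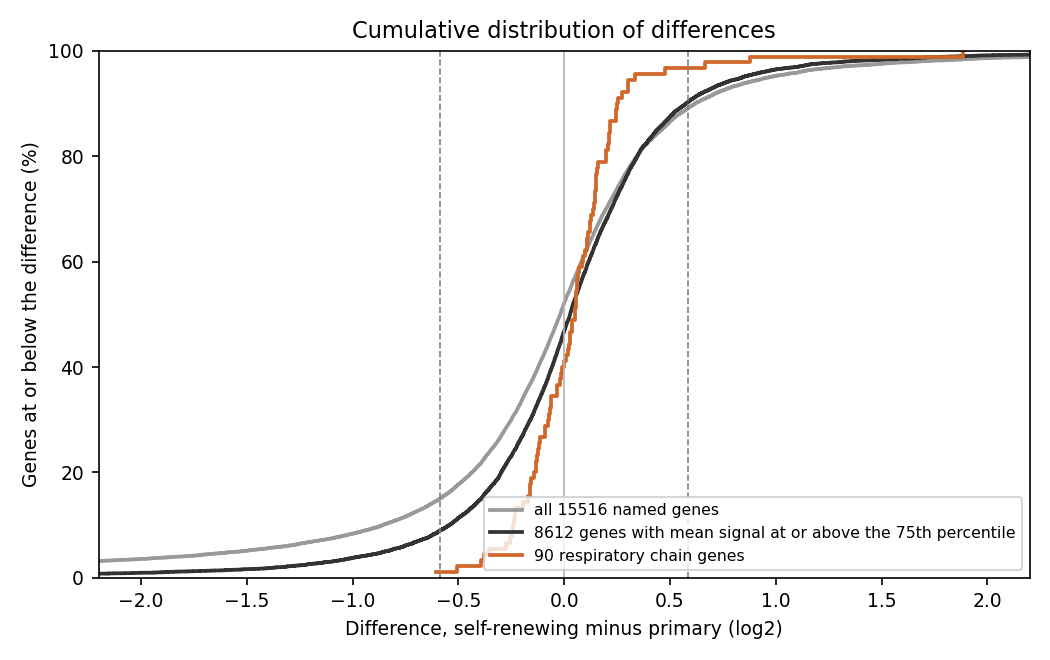
Cumulative distribution of the log2 difference (self-renewing minus primary macrophages, x axis) as a percentage of genes (y axis) for all 15516 named genes, the 8612 bright ones and the 90 respiratory chain genes; dashed lines mark 1.5-fold, and differences beyond the axis are not drawn. The respiratory chain curve is the steepest, with an interquartile range of 0.27 log2.

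The errors that a single array allows were set beside these values. For the 89 genes measured on both arrays, the scanner's own error model gave each difference an error of 0.204 to 0.206 log2. This error was nearly the same for bright and dim genes, so it acts much like a fixed limit. Of the 89 genes, 29 differed by more than 1 such error. Only 6 differed by more than 2 errors: Cox6a2, Ndufaf4, Ndufaf3 and Ndufb3 were higher, and Cox7a1 and Ndufab1 lower. The SD between different probes of 1 gene, over 5077 genes, was 0.325 log2, and 10 respiratory chain genes differed by more than that. The shares of all named genes past these limits are not given here, so the counts are not read as particular to the respiratory chain. Repeated spots of 1 probe were closer, with a median SD of 0.043 log2 on the primary and 0.046 log2 on the self-renewing array. None of these errors holds the variation between cultures.

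The signals were high. On both arrays, 85 of the 90 genes (94.4%) were above the 75th percentile, compared with 52.9% of all named genes. The exceptions were Ndufaf4, Ndufaf6, Cox6a2, Cox6b2 and Cox7b2. Levels of different genes rest on different probes and were not ranked against each other.

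**Figure D2:**
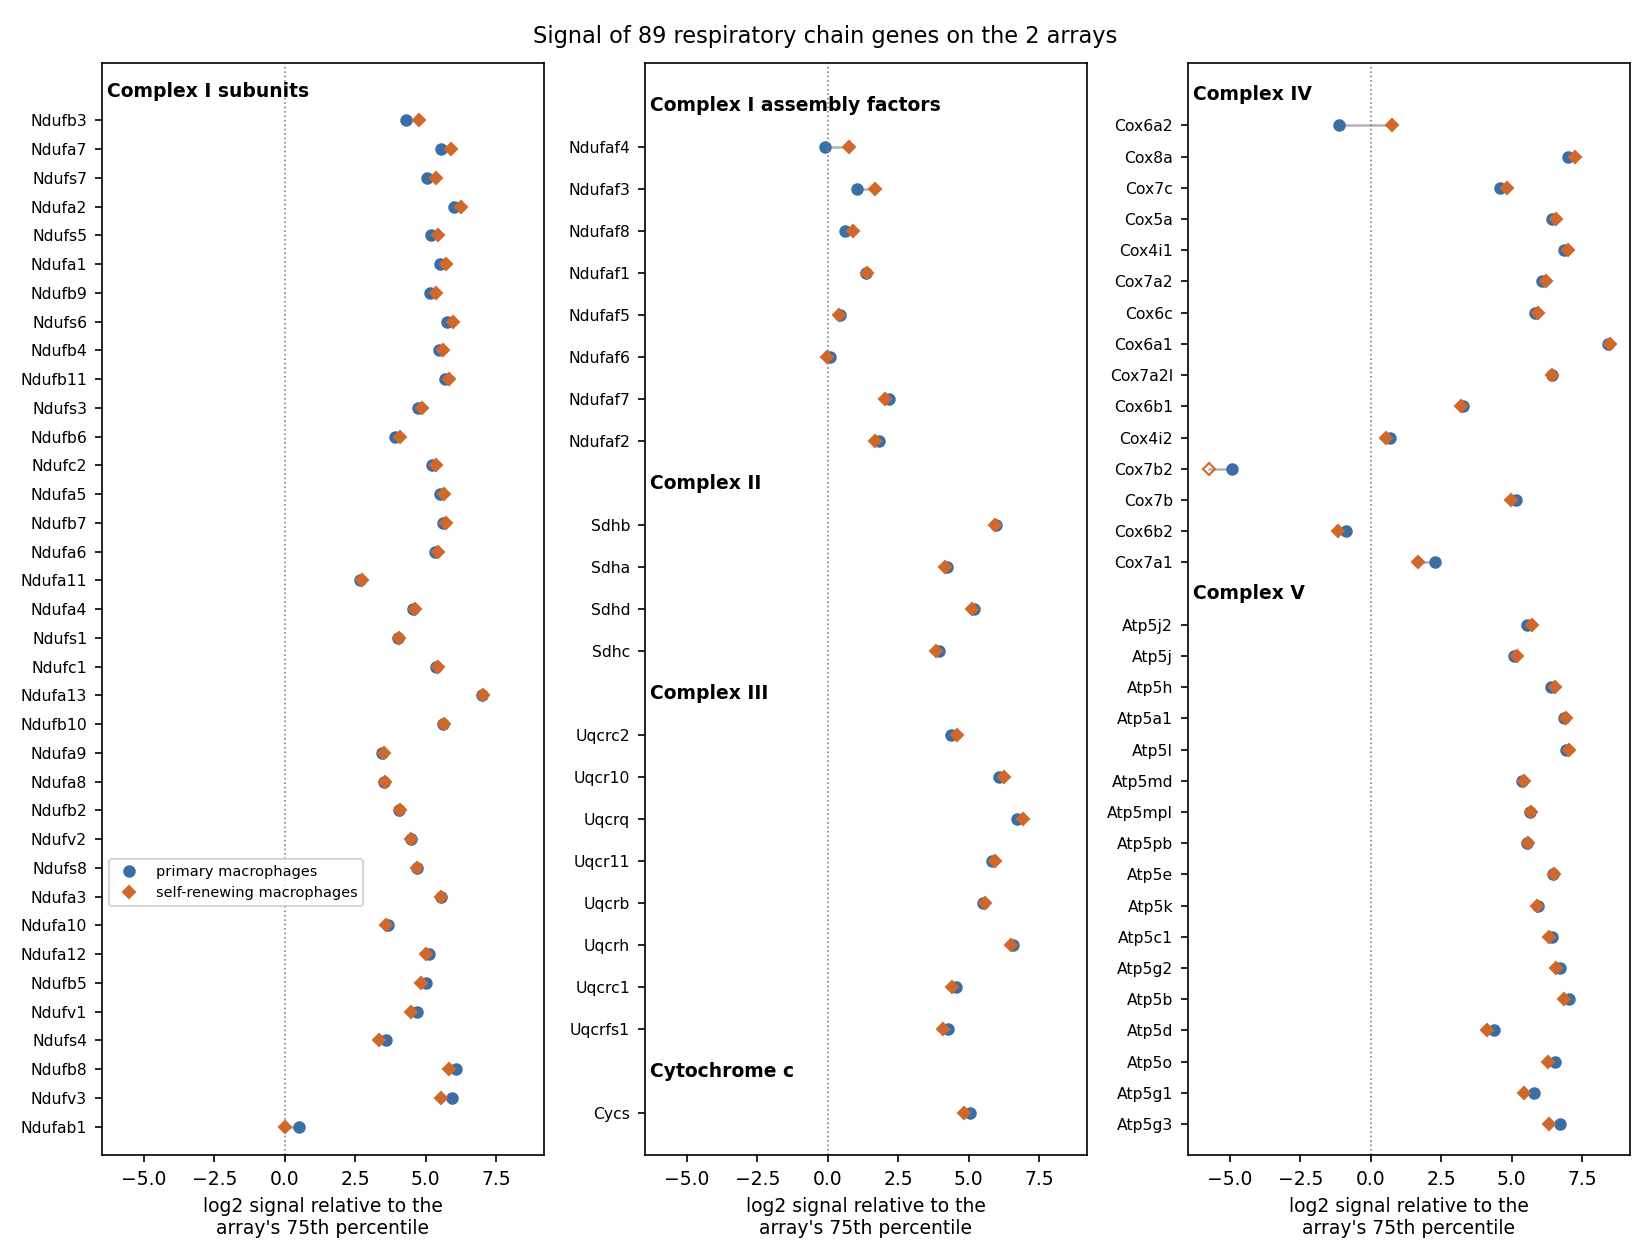
Log2 signal relative to the 75th percentile of the array (x axis) for 89 of the 90 respiratory chain genes, by complex, in primary macrophages (circles) and self-renewing macrophages (diamonds), 1 array each; an open diamond is not well above background. The pairs of symbols overlap for most genes and are farthest apart for Cox6a2, at -1.12 and 0.77; levels of different genes come from different probes.

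Complex I had the most members. Its subunits form a matrix arm, which holds the flavin and the iron-sulfur clusters, and a membrane arm, which pumps protons. Of 37 measured subunits, 27 were higher and 10 lower in self-renewing macrophages. The share that was higher was 73.0%, beside 47.9% of all named genes and 53.2% of the bright ones. The median was 0.06 log2, with a range from -0.51 to 0.48. No subunit passed 1.5-fold in either direction, except that Ndufb3 did so on the higher side under the scaling in the submitters' own value table (0.66).

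Core subunits of the matrix arm differed in both directions. Ndufs7, which holds the last iron-sulfur cluster before ubiquinone, was at 5.06 log2 in primary and 5.36 in self-renewing macrophages, a difference of 0.30, which is more than 1 scanner error and less than 2. Ndufv1, which binds NADH and flavin, went the other way, from 4.70 in primary to 4.47 in self-renewing macrophages (-0.23). Other core subunits were closer to 0, with differences of 0.15 for Ndufs3, 0.06 for Ndufs1, 0.01 for Ndufv2 and -0.01 for Ndufs8.

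Among the accessory subunits, Ndufb3, a small protein of the membrane arm, had the largest positive difference. Its intensity was 8532 in primary and 12209.6 in self-renewing macrophages, or 4.30 and 4.77 log2, a 1.39-fold difference. Ndufa7, of the matrix arm, was next, at 5.56 and 5.89 (0.33). The largest negative difference was that of Ndufab1, the mitochondrial acyl carrier protein, which also serves fatty acid synthesis in mitochondria. Its intensity was 618 in primary and 448 in self-renewing macrophages (0.51 and 0.00 log2), 1.42-fold lower in the latter. Ndufv3, near the NADH site, stood at 5.95 and 5.56 (-0.39), and Ndufb8, of the membrane arm, at 6.09 and 5.83 (-0.25). Ndufa4, named for complex I but since assigned to complex IV, differed by 0.06. Its hypoxia-induced relative Ndufa4l2 was not well above background on either array.

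The complex I assembly factors, which put the complex together without staying in it, held 2 of the 4 genes past 1.5-fold. Ndufaf4 had an intensity of 401 in primary and 757 in self-renewing macrophages, or -0.11 and 0.76 log2, and was thus 1.84-fold higher in the latter. Ndufaf3, which is known to act together with Ndufaf4 early in assembly, had 885 and 1445 (1.03 and 1.70 log2), a 1.59-fold difference. Each rested on 1 probe. Ndufaf8 was also higher, at 0.61 and 0.89 log2 (0.27). The remaining members lay between -0.14 (Ndufaf2) and 0.04 (Ndufaf1), with Ndufaf7 at -0.13 and Ndufaf6 at -0.12. The 8 factors split evenly, 4 higher and 4 lower, with a median of 0.00 log2.

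Complex II, succinate dehydrogenase, is also an enzyme of the TCA cycle and has 4 subunits, all encoded in the nucleus. All 4 differed by less than 0.1 log2. Sdha, the flavoprotein, was at 4.23 and 4.17 log2 in primary and self-renewing macrophages (-0.06), and Sdhb, the iron-sulfur subunit, at 5.97 and 5.96 (-0.01). The membrane anchors Sdhc and Sdhd differed by -0.09 and -0.07. All were slightly lower by their brightest probe, but the second probes of Sdha and Sdhb gave 0.11 and 0.17, and the sign of the median (-0.07) turned to 0.12 under the scaling in the submitters' own value table. Every one of these differences was within the scanner error.

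In complex III, 5 of 8 subunits were higher and 3 lower, with a median of 0.08 log2. The 3 higher by the most were Uqcrc2, a core protein (4.37 and 4.59, difference 0.21), Uqcr10 (6.07 and 6.27, difference 0.21) and Uqcrq (6.74 and 6.94, difference 0.20), both small subunits. Uqcrfs1, the Rieske iron-sulfur protein, was at 4.26 and 4.10 (-0.16), Uqcrc1, the other core protein, at 4.54 and 4.42 (-0.12), and Uqcrh, the hinge protein, at 6.57 and 6.51 (-0.06). The 2 core proteins thus had opposite signs, each within about 1 scanner error. Cycs, cytochrome c, which is also released in apoptosis, was at 5.07 and 4.83 by its brighter probe (-0.23), while its other probe gave 0.15, so that its direction depended on the probe.

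Complex IV, cytochrome c oxidase, held the gene with the largest difference. Of 15 measured members, 8 were higher and 7 lower, with a median of 0.06 log2 and a range from -0.60 to 1.88. The widely expressed subunits were close. Cox4i1 was at 6.87 and 7.02 log2 in primary and self-renewing macrophages (0.15), Cox5a at 6.43 and 6.58 (0.16) and Cox8a at 7.01 and 7.26 (0.26). Cox7c, a small membrane subunit, was at 4.60 and 4.85 (0.25). Cox7b was lower in self-renewing macrophages, at 5.15 and 4.99 (-0.16). Cox7a2l, which links complexes III and IV into supercomplexes, did not differ to 2 decimals (6.45 on both arrays).

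The isoforms restricted to certain tissues varied more. Cox6a2, the heart and skeletal muscle isoform of subunit 6a, was at -1.12 log2 in primary and 0.77 in self-renewing macrophages, and was thus 3.69-fold higher in the latter. Its widely expressed counterpart Cox6a1 differed by 0.06. Both Cox6a2 values were well above background and came from 1 probe. Cox7a1, the muscle isoform of subunit 7a, went the other way: its intensity was 2088 in primary and 1413 in self-renewing macrophages (2.27 and 1.66 log2), 1.52-fold lower in the latter. Its counterpart Cox7a2 differed by 0.14 (6.08 and 6.22). The 2 muscle isoforms therefore differed in opposite directions, and under the submitters' scaling Cox7a1 no longer passed 1.5-fold.

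The other isoforms of this kind showed no such difference. Cox4i2, of lung, was at 0.67 and 0.54 log2 (-0.13), and Cox6b2, of testis, at -0.88 and -1.15 (-0.28), beside -0.08 for the common Cox6b1. Cox7b2, of testis, was well above background in primary macrophages only, near the lowest such signal on that array (-4.92 against -5.20). The lowest such signal on the self-renewing array (-5.08) sets self-renewing macrophages at least 1.12-fold lower. With quantile normalization this bound was 0. Cox8b, of muscle, and Cox8c, of testis, were not well above background on either array. No value can be given for Cox5b, which had no named probe.

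**Figure D3:**
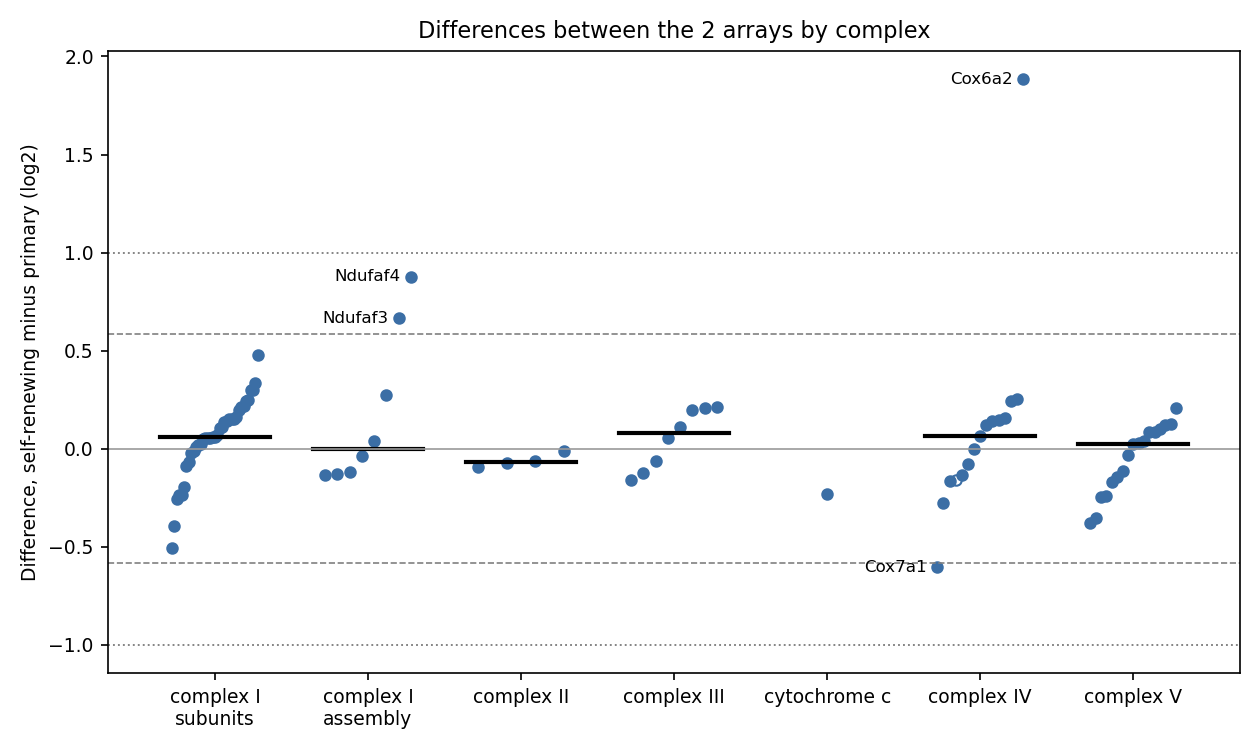
Difference between the arrays (self-renewing minus primary macrophages, log2, y axis) for each gene, by complex; black bars are medians, dashed lines 1.5-fold and dotted lines 2-fold, and an open circle is a bound. The medians lie between -0.07 and 0.08, and only Cox6a2, Ndufaf4, Ndufaf3 and Cox7a1 lie past 1.5-fold.

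Complex V had 9 members higher and 8 lower, a median of 0.02 log2 and a range from -0.38 to 0.21. The sign of that median turned when a gene's probes were averaged (-0.03) and with another background correction (-0.04). The catalytic head was close to 0, with Atp5a1 (alpha) at 6.85 and 6.95 log2 (0.10), Atp5b (beta) at 7.03 and 6.86 (-0.17) and Atp5c1 (gamma, the rotating shaft) at 6.45 and 6.34 (-0.11). The 3 genes for the c-ring, the rotor through which the protons pass, were all lower in self-renewing macrophages, except that Atp5g2 turned to 0.03 with quantile normalization and to 0.04 under the submitters' scaling. Atp5g3 was at 6.71 and 6.33 (-0.38), Atp5g1 at 5.81 and 5.46 (-0.35) and Atp5g2 at 6.72 and 6.58 (-0.14). These 3 genes encode the same mature protein. Atp5o, of the stalk that holds the head still, was at 6.54 and 6.29 (-0.24), and Atp5d, of the central stalk, at 4.38 and 4.13 (-0.24). On the higher side were Atp5j2, a membrane subunit (5.53 and 5.74, difference 0.21), Atp5j (0.13) and Atp5h (0.12), both of the outer stalk.

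Probes of 1 gene mostly gave like values. Several probes were measured for 20 genes, and for 8 of them the probes fell on both sides of 0. The widest gap was 0.41 log2, at Atp5md, and no gene's probes differed by more than 2-fold. The 3 probes of Atp5b ranged from -0.19 to -0.14. The remaining 70 genes rested on 1 probe. Respiratory chain genes have many processed pseudogenes, 19 of them under these symbols alone, none with a named probe here, and whether such copies bind to the probes was not tested.

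The 3 members on the X chromosome were set apart because of the sex-linked genes. Ndufa1 differed by 0.22, Ndufb11 by 0.15 and Cox7b by -0.16, with a median of 0.15. The 87 autosomal members had a median of 0.05 and ran from -0.60 to 1.88. So few genes beside so wide a range are a description only, and an effect of sex was not tested.

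The processing moved the size of most differences little, but the submitters' own values were scaled differently and raised every gene by the same amount, which took the median of all named genes from -0.02 to 0.17 log2. Under at least 1 of 8 alternatives, 29 of the 90 genes changed sign, 24 of them under the submitters' scaling, and none of the 29 had differed by more than 0.17 log2. The 4 genes past 1.5-fold kept their directions under all of them, with Cox6a2 between 1.598 and 2.07, Ndufaf4 between 0.79 and 1.07, Ndufaf3 between 0.65 and 0.85 and Cox7a1 between -0.64 and -0.42.

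**Figure D4:**
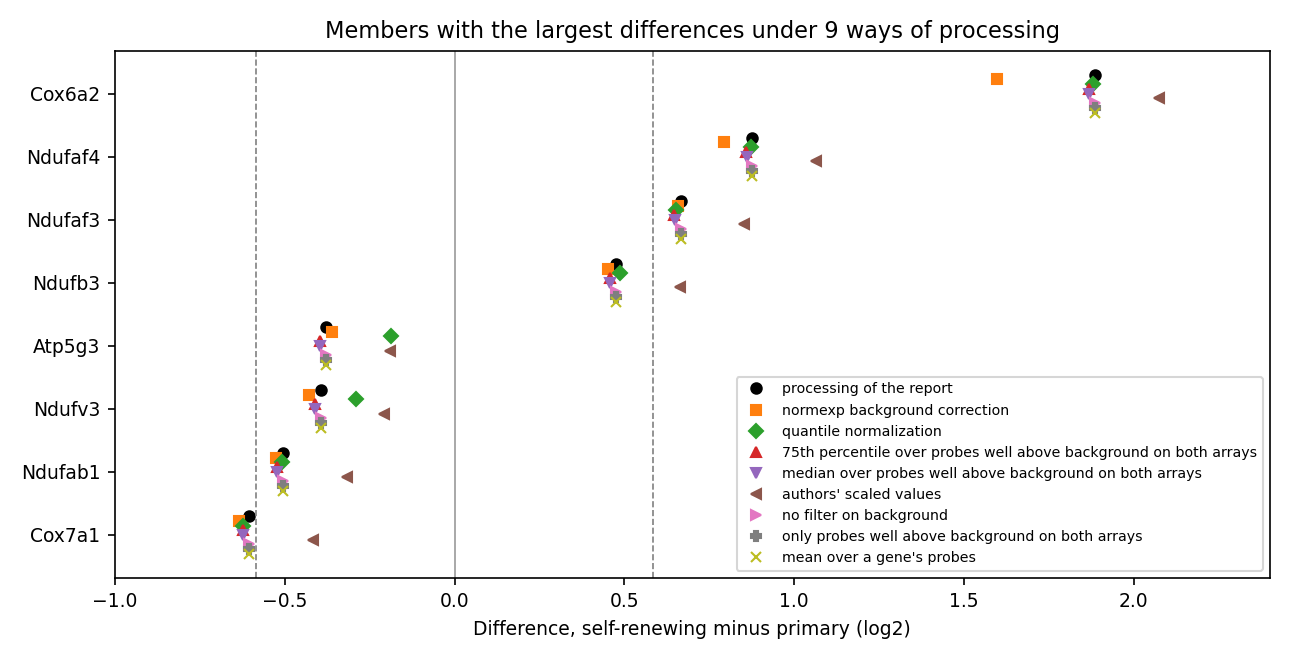
Log2 difference (self-renewing minus primary macrophages, x axis) of the genes with the 4 largest positive and 4 largest negative differences under the processing of the report and 8 alternatives; dashed lines mark 1.5-fold. Each gene keeps its sign, and only with the submitters' scaled values does Cox7a1 fall inside 1.5-fold (-0.42) and Ndufb3 pass it (0.66).

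Other genes of the mitochondrion were read from lists that do not overlap with the symbols above. Assembly factors of the chain outside those symbols were much like the subunits: 40 of 41 were measured, 26 higher and 14 lower, with a median of 0.04 log2 and none past 1.5-fold. The highest were Sdhaf1 (0.53), for complex II, and Uqcc2 (0.35), for complex III, and the lowest Atpaf2 (-0.53), for the ATP synthase, and Coa7 (-0.46), for complex IV. Cyc1, Hccs, the electron transfer flavoproteins and the ubiquinone pathway (15 genes) had a median of 0.05, with 8 higher and 7 lower. The 2 lower by more than 1.5-fold were Pdss1 (-0.90), which makes the ubiquinone side chain, and Coq3 (-0.64), a methyltransferase of the pathway, while Coq4 (0.44) and Coq9 (0.18) were the highest.

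Regulators of mitochondrial biogenesis and DNA had 18 of 19 genes measured, 11 higher and 7 lower, with a median of 0.05. Esrra, the nuclear receptor ERRα, was the only one past 1.5-fold, at 3.54 and 4.25 log2 in primary and self-renewing macrophages (0.71), followed by Tefm (0.50), a transcription elongation factor. Tfb1m (-0.47), which methylates mitochondrial ribosomal RNA, and Pprc1 (-0.24) were the lowest. Ppargc1a, the coactivator PGC-1α, was not well above background on either array.

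The TCA cycle and pyruvate enzymes (19 genes) split evenly, 9 higher and 10 lower, with a median of -0.05, which became 0.14 under the submitters' scaling. Pcx, pyruvate carboxylase, which refills the cycle with oxaloacetate, was the only one past 2-fold, at -0.35 and 0.97 log2, a 2.51-fold difference. Dlat followed at 0.42 by its brighter probe, while its other probe gave -0.19. Idh2 (-0.76) and Idh3a (-0.57), both isocitrate dehydrogenases, were the lowest. Carriers and channels (17 genes) had a median of -0.24, with 6 higher and 11 lower. The lowest were Slc25a13 (-0.98), the aspartate-glutamate carrier, and Slc25a1 (-0.86), the citrate carrier, and the highest Slc25a10 (0.28) and Slc25a11 (0.24), the dicarboxylate and oxoglutarate carriers.

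Of 78 genes for the mitochondrial ribosome, 29 were higher and 49 lower, with a median of -0.08, which became 0.11 under the submitters' scaling. Only Mrpl52 (1.43) and Mrps6 (-1.03) were past 2-fold, and Mrpl33 (0.39) and Mrpl18 (-0.55) came next. Past 1.5-fold, the shares of all named genes given above were 10.9% higher and 15.1% lower. In no list did more than 2 genes pass it in either direction, but most lists are short. On the lower side were 2 of 15 genes of the Cyc1 and ubiquinone list and 2 of 17 carriers and channels. These 2 shares are near that of all named genes.

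**Figure D5:**
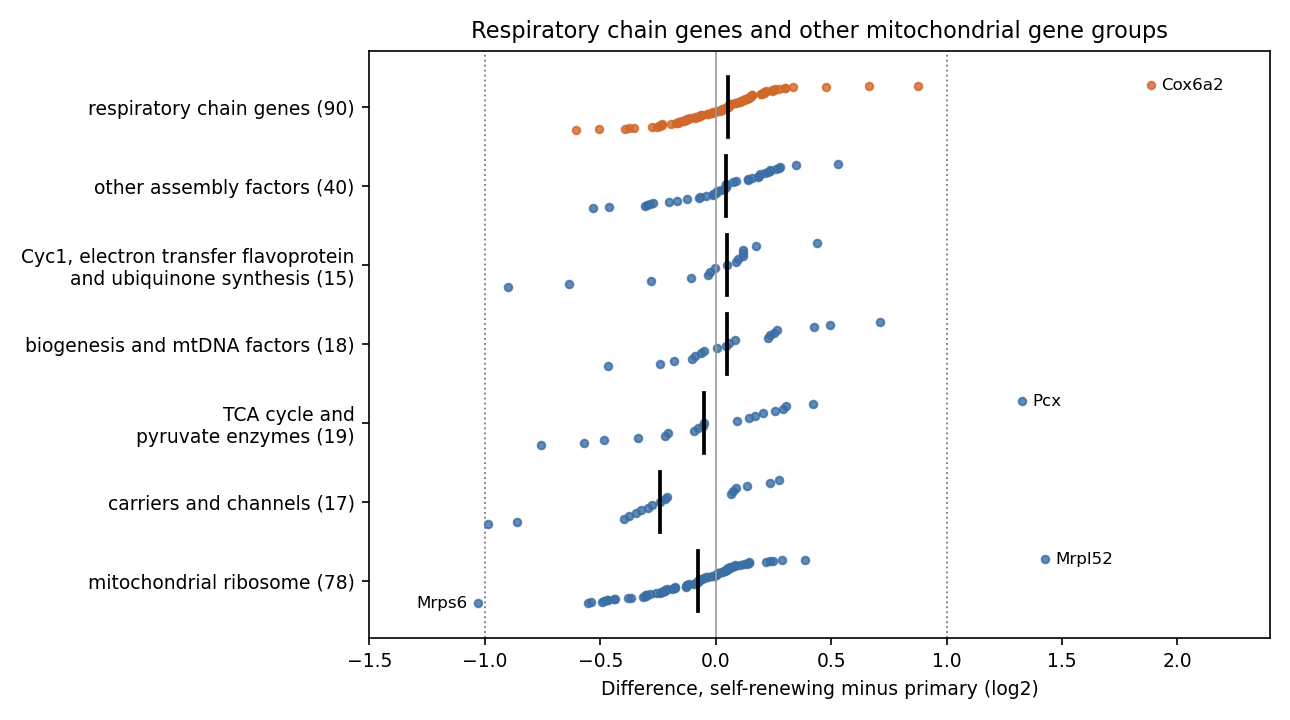
Log2 difference (self-renewing minus primary macrophages, x axis) of each measured gene in the respiratory chain and in 6 other mitochondrial groups, with the number of genes in brackets, medians as black bars, and genes past 2-fold (dotted lines) named. Medians lie between -0.24 (carriers and channels) and 0.05, and Cox6a2, Pcx, Mrpl52 and Mrps6 lie past 2-fold.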

How the data were processed

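Total RNA was labelled with Cy3 and hybridised to 1-colour Agilent mouse arrays, 1 for each cell type, on 1 slide. The deposited scanner files hold spot intensity as the authors' Feature Extraction 11.5.1.1 wrote it, after background subtraction and without normalization between arrays. The authors' value table holds the same intensity multiplied by a constant per array (1.07 and 1.19), for a reason not given in the sources used here. Of 56598 gene probes, 32988 (58.3%) were named by matching their accessions to the RefSeq gene table of GRCm38.p6. The array's annotation is of another build, so no probe coordinates are given. Control spots and 63 outlier spots per array were left out, and none was saturated. The 75th percentile of intensity was 434 in primary and 446 in self-renewing macrophages, and log2 values were taken relative to it. A gene was represented by its brightest probe and kept if well above background on at least 1 array. Where it was so on 1 array only, the difference is a bound. The named genes were those past 1.5-fold or above background on 1 array only, the 3 highest and lowest of each complex, core subunits, tissue isoforms and the 2 highest and lowest of each list, and others shown beside them were chosen after their values were seen. The values of 1 gene are not reported here. The genes and lists were chosen with earlier results of these data known. Alternatives were normexp (limma 3.58.1, R 4.3.3, offset 50, median spot signal), quantile normalization, other percentiles, the authors' table, other filters and the mean over probes. Calculations in Python 3.11.15 were tested on simulated data. The precision is limited by 1 array per cell type.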

Additional observations from a re-analysis of the deposited data

How the results depend on the processing

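Of 719 single-gene values under the 8 alternatives, 718 stayed within 0.325 log2 of the reported value, which is the SD between probes of 1 gene. The exception was Cox7b2, at -0.81 without the filter on background. Of 112 group medians, 97 moved by less than the error that this SD gives a median. Quantile normalization gave medians of 0.12 for all genes, 0.15 for complex I and 0.20 for complex IV. The authors' scaling raised all genes (the share of named genes that were higher went from 47.9% to 64.4%). Under it the medians were 0.24 for all respiratory chain genes, 0.25 for complex I, 0.19 for its assembly factors, 0.27 for complex III, 0.25 for complex IV and 0.21 for complex V. For the other groups they were 0.23 for the other assembly factors, 0.24 for electron carriers, 0.24 for biogenesis, 0.14 for the TCA cycle, -0.053 for carriers and 0.11 for the ribosome. It left 0 genes at least 1.5-fold lower, 4 at least 1.5-fold higher (Ndufb3 was added) and 2 at least 2-fold higher (Cox6a2 and Ndufaf4). Without the filter on background, 3 genes were at least 1.5-fold lower, since genes near background then count. No paired analysis was possible because there was a single array per cell type, and leaving out a replicate was not possible for the same reason. Signal near background limits Cox7b2, Cox8b, Cox8c and Ndufa4l2.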
